A study of Homo sapiens with 2 samples.

Results

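KLF and SP factors are zinc-finger proteins that bind GC-rich promoter elements, and in stratified epithelium they set the balance between proliferating basal cells and differentiating cells. A total of 10 of their genes were looked up in a list of ChIP-seq peaks: KLF3, KLF4, KLF5, KLF6, KLF7, KLF10, KLF11, KLF13, SP1 and SP3. A gene was given a peak when its exact symbol stood in the feature annotation of the peak or was the nearest gene to it. By this rule 1 of the 10 genes, KLF3, had a peak, a single peak of the 1900 listed, and 9 had none, KLF7 itself included. Across the genome, 6.88% of 20007 protein-coding genes (1377, 95% Wilson interval 6.54 to 7.24%) had a peak by the same rule, with older symbols read as current ones. The 1 gene of 10 is close to that share.

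The list came from CAL27, an established tongue carcinoma cell line. The cells had received lentivirus carrying KLF7 with a myc tag, so every library was from cells with added KLF7, and the chromatin was fixed with 1% formaldehyde. There was 1 library precipitated with the antibody Myc (CST, D3N8F) and 1 input library without antibody, both from the same modified cells. No replicate and no library from cells lacking myc-KLF7 was used here, so the values below describe peaks within 1 list, with counting error only, and no condition was compared with another.

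The members of the family share a C-terminal array of C2H2 zinc fingers that reads GC boxes, such as GGGCGG, and CACCC boxes, written here as CCACNCCC. The family is known for cross-regulation, because many of its genes have GC-rich promoters that their own products can bind. KLF4 and KLF5 are the members best known in epithelium: KLF4 is needed for the skin barrier and for differentiation, and KLF5 is found mainly in proliferating basal cells. A peak here means more ChIP fragments over a position than the local background predicts. The pileup counts the ChIP fragments that cover the highest point of a peak, its summit, and the fold enrichment is the pileup over the background rate, each increased by 1.

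The sequences within 100 bp of the summit were taken from GRCh38, plus strand, for KLF3 and for KLF16, the other family gene with a peak, because these are the stretches the ChIP signal points to. They are chr4:38663960-38664160 and chr19:1864156-1864356. Matches on either strand to GGGCGG, GGGGCGGGG, CCACNCCC and to CACGTG, the E-box bound by MYC, are in capitals.
KLF3: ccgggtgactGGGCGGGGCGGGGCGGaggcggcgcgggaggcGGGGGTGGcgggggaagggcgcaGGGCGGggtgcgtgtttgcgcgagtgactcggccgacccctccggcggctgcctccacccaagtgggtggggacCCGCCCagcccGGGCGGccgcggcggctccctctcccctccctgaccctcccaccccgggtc
KLF16: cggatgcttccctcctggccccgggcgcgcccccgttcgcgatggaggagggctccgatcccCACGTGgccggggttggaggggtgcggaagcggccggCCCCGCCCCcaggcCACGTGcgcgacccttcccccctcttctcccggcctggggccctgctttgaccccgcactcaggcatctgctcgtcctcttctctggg

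KLF3 (ENSG00000109787), which encodes a repressor that works with the corepressor CtBP, had a promoter peak on chromosome 4 from 38663996 to 38664225, 230 bp long. At the summit, 38664060, 14 fragments were piled up where the local background rate was 1.54, and the exact 95% Poisson interval of that pileup was 7.65 to 23.5. This gave a fold enrichment of 5.90 (3.40 to 9.62 with the background taken as fixed), a -log10 p of 9.91 and a -log10 q of 5.75. Neither interval allows for the peak being listed only because it passed the threshold of the peak caller. The peak was of ordinary strength, since the median pileup of all peaks was 13 and the median fold enrichment 5.06. It ranked 753 of 1900 by q-value, and 192 of the 576 peaks with a promoter entry. By fold enrichment it ranked 518 of all peaks, and 173 promoter peaks lay above it.

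The KLF3 summit lay 137 bp upstream of the start of the gene in GENCODE v44, at 38664197, and all 3 annotated KLF3 transcripts started within 500 bp of it. The first exon and 5′ UTR of KLF3 took up the last 29 bp of the peak, and the summit itself fell in no annotated exon of a KLF gene. The authors annotated the same peak to an intron of KLF3-AS1, a long non-coding RNA read from the opposite strand across the KLF3 start. The peak can therefore not be assigned to KLF3 rather than KLF3-AS1. All of the 31-base words under the peak occurred at a single place of the genome, and it was in no dense cluster of peaks.

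Within 100 bp of the KLF3 summit GGGCGG was found at 6 positions. Of 571 promoter peaks on assembled chromosomes, 68.1% held at least 1 match in the same window and 11 (1.93%) held 6 or more. Counted from the gene start, 3 overlapping copies spanned -227 to -212, and the others lay at -172 to -167, -98 to -93 and -87 to -82. The overlapping copies contain the longer GGGGCGGGG, at -223 to -215, and lie to the left of the peak as called, which holds the other 3 copies. A CACCC box lay at -195 to -188, a motif held by 18.9% of promoter peaks. CACGTG was not found within 100 bp of the KLF3 summit, whereas 26.8% of promoter peaks held it. The window had a GC content of 81.1%, at percentile 99.3 of promoter peaks, whose median was 69.7% and maximum 82.6%. GGGCGG without CACGTG, as in the KLF3 window, was held by 51.7% of promoter peaks.

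**Figure D1:**
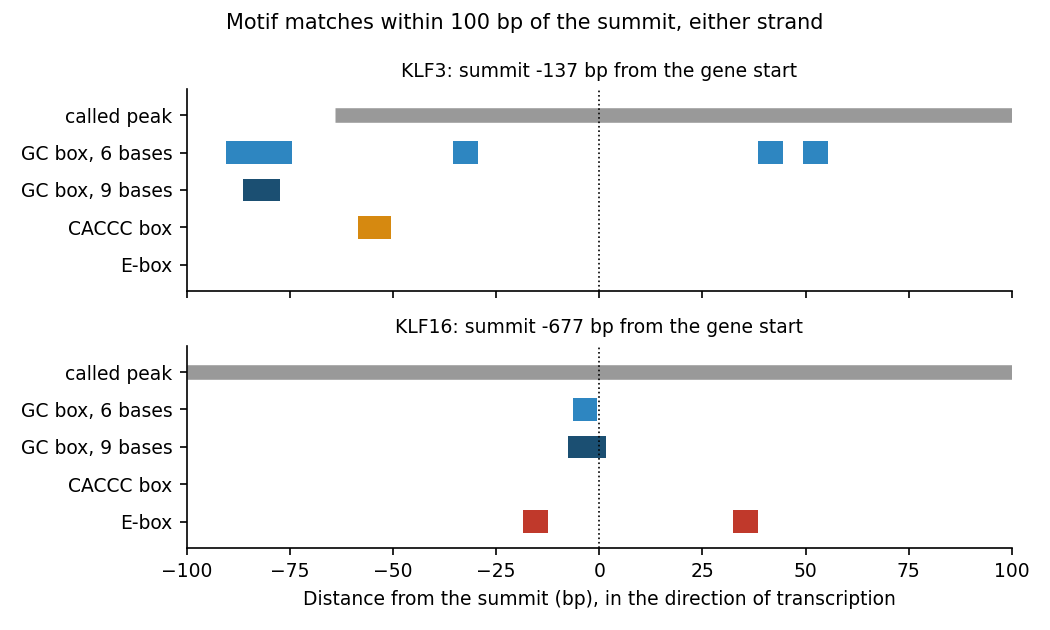
Positions of motif matches within 100 bp of the KLF3 and KLF16 summits, on an axis of distance from the summit in bp in the direction of transcription; coloured boxes are matches on either strand, touching or overlapping boxes merge, and the grey bar is the part of the called peak in the window. In this window KLF3 has GC boxes on both sides and no E-box, and KLF16 has a GC box at the summit between 2 E-boxes. The called KLF16 peak, which runs beyond the window, holds further GC boxes and a CACCC box.

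The genes without a peak were first checked for other names. None of their RefSeq synonyms stood in the peak table, and none of their Ensembl identifiers was the nearest gene of a peak. The result did not rest on the authors' gene assignment: with a summit within 2000 bp of any annotated transcript start, KLF3 was again the only one of the 10 genes called, against 5.83% of protein-coding genes. A search from 10000 bp before to 10000 bp after each gene body also gave KLF3 alone. The share of protein-coding genes called by that search is not given here. A gene without a listed peak is not thereby unbound. At the lowest background rate of the table, 0.927, the smallest pileup listed was 7 fragments, and at the rate under the KLF3 peak 9 fragments were needed for a p as small as the weakest in the list. Signal below that was not detectable at this depth, and the table holds no read totals.

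KLF7 (ENSG00000118263), the factor that was tagged and the closest relative of KLF6, is on chromosome 2 from 207074137 to 207173856, minus strand. No peak lay within 1 Mb of its gene start, and the nearest summit, in a peak annotated to the NDUFS1 and SNORD51 promoters and an EEF1B2 intron, was 1013687 bp downstream. KLF7 has 14 annotated transcripts with starts spread over 49448 bp, and the summit nearest to any of them was still 964 kb away. The absence of a KLF7 peak therefore holds for its alternative promoters as well. KLF6, an activator of GC-rich core promoters on chromosome 10 from 3775996 to 3785281, also had no peak within 1 Mb. Its nearest summit was 2028550 bp upstream, in an intron of GDI2 and the promoter of AL596094.1.

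KLF4 is on chromosome 9 from 107484852 to 107490482, minus strand, and the nearest summit was 206540 bp downstream in an intron of RAD23B, a DNA repair gene. That peak had 29 fragments at its summit and was enriched 10.3-fold, and its only annotated gene was RAD23B. KLF5 is on chromosome 13 from 73054976 to 73077541, and its nearest summit was 12658063 bp upstream, at TDRD3. Among protein-coding genes, 96.8% were at most that far from a summit, which makes KLF5 the most isolated of the 10 genes. Neither of these epithelial factors therefore had a peak at its start or in its body.

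KLF10 and KLF11, the TGF-beta-inducible members that repress through the SIN3A corepressor, were nearer to peaks but had none of their own. The nearest summit to KLF10 was 151850 bp upstream, in an intron of AP003356.1. That of KLF11, on chromosome 2 from 10042849 to 10054836, was 77817 bp downstream in the promoter of RRM2, a ribonucleotide reductase subunit, with 12 fragments and 6.75-fold enrichment. KLF13, on chromosome 15 from 31326835 to 31435665, was the nearest to a peak of the genes without one. That summit lay 63299 bp upstream in an intergenic peak, to which AC012236.1 was the nearest gene, with 9 fragments and 5.19-fold enrichment.

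SP1, the widely expressed activator after which the SP genes are named, is on chromosome 12 from 53380176 to 53416446, with the nearest summit 373124 bp upstream in EIF4B. SP3, whose protein binds the same boxes as SP1, is on chromosome 2 from 173880850 to 173965373, with the nearest summit 283376 bp upstream in the OLA1 promoter. Those peaks were weaker than the KLF3 peak, with fold enrichments of 3.99 and 3.59. Over the 10 genes the distance to the nearest summit had a median of 245 kb, compared with 470 kb over protein-coding genes. A summit lay within 100 kb of 3 of the 10 genes (30.0%), KLF3 included, compared with 21.9% of protein-coding genes. For the 9 genes without a peak the median was 283 kb, and 2 (22.2%) had a summit within 100 kb.

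**Figure D2:**
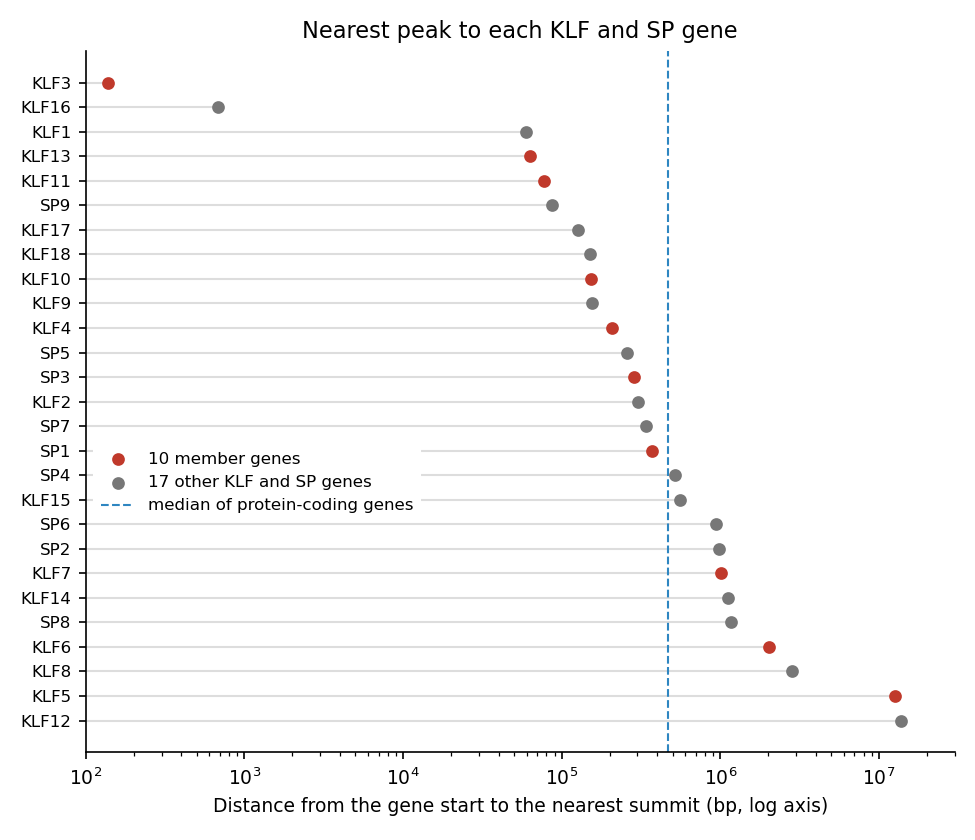
Distance from the gene start to the nearest peak summit (bp, log axis) for the 10 member genes (red) and 17 other KLF and SP genes (grey), with the median over protein-coding genes as a dashed line at 470 kb. KLF3 at 137 bp and KLF16 at 677 bp stand apart, and every other gene is at least 59107 bp from a summit.

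RefSeq windows from 250 bases before to 50 bases after a RefSeq start (GRCh38.p14) were matched for 8 of the 10 genes, KLF3 and KLF10 having no entry. GGGCGG was found in 6 of the 8 windows, compared with 58.5% of 15843 protein-coding windows. KLF4 and SP1 had 4 matches each, KLF13 had 3, and KLF6, KLF11 and SP3 had 2 each. The KLF5 and KLF7 windows had none. Each window covers 1 start: the starts of KLF5 transcripts are spread over 20039 bp and those of KLF7 over 49448 bp. The KLF7 window, from 207165899 to 207166198, does not hold the GENCODE gene start. Neither does that of KLF4, from 107489720 to 107490019, or that of KLF11, from 10043579 to 10043878. Their GENCODE starts, 107490482 and 10042849, lie upstream of the windows. The longer GGGGCGGGG was present in KLF4, KLF13 and SP1, compared with 22.4% of all windows. The CACCC box was present in KLF6, KLF7 and KLF13, compared with 19.7%, and CACGTG in KLF4, KLF6 and KLF11, compared with 8.88%. Of the 8 windows, only that of KLF13, which had no listed peak, held the same kinds of motif as the KLF3 summit window. The KLF13 window had 3 GGGCGG, 1 GGGGCGGGG, 1 CACCC box and no CACGTG. The KLF3 summit window had 6 GGGCGG, and none of the 8 windows had more than 4. That window is centred on a summit and the others are set by a RefSeq start, so counts are not like for like. Whether motif content accounts for the KLF3 peak was not tested. A match is a description of letters and not of a bound site.

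The bases before the RefSeq starts of KLF4 and SP1 are shown for comparison with KLF3. These stretches hold as many GC boxes as any of the 8 matched windows. They are the 250 bases before the RefSeq start, from RefSeq, GRCh38.p14, in the direction of transcription: chr9:107489770-107490019, minus strand, and chr12:53379926-53380175, plus strand. The KLF4 stretch lies inside the GENCODE v44 gene interval, downstream of its start at 107490482. That of SP1 lies upstream of its GENCODE start, at 53380176. Capitals mark the same motifs as above.
KLF4: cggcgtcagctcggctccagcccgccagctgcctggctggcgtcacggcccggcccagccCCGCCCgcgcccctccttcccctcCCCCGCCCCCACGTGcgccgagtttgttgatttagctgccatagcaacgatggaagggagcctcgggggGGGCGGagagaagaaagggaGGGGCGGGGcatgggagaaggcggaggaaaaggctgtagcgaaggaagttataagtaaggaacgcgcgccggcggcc
SP1: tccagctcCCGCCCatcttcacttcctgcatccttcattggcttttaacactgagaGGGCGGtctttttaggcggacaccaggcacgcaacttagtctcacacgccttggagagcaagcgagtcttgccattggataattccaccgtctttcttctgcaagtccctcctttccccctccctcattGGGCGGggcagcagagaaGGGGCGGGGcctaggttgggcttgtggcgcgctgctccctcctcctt

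Both stretches hold 4 copies of GGGCGG, and KLF4 also holds a CACGTG that touches a GC box. Their GC content was 69.2% for KLF4 and 58.0% for SP1, against 81.1% in the KLF3 summit window. In 7 of the 8 promoter windows every 31-base word occurred once in the genome, and in KLF7 0.370% of the words were repeated. How reads mapped there was not tested.

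**Figure D3:**
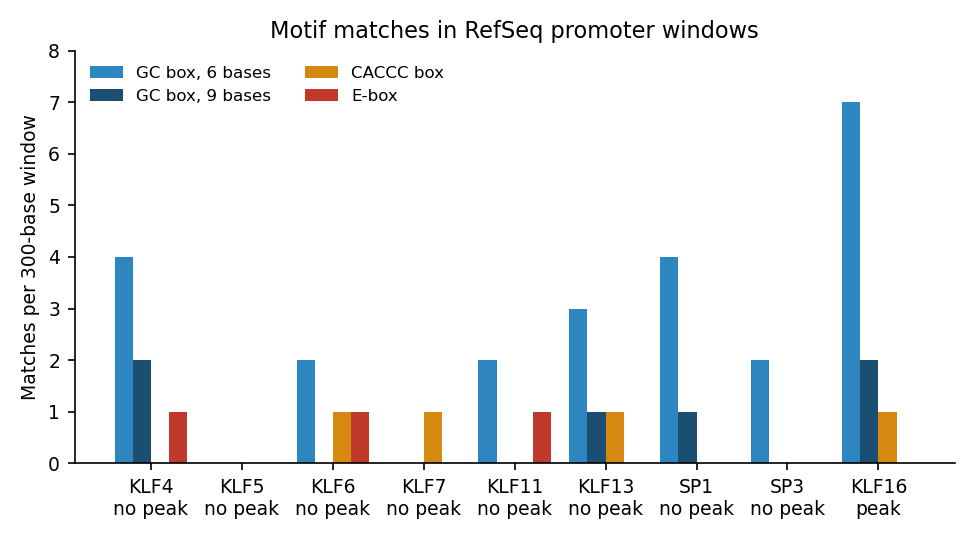
Number of motif matches on either strand in the 300-base RefSeq promoter windows of 8 member genes and of KLF16, by motif (bar colours). KLF4 and SP1, with 4 GC boxes and no peak, have more than most, and the KLF16 window has 7; the KLF16 peak lies upstream of its window.

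Beyond the 10 genes, 17 other KLF and SP genes were looked up by the same rule: KLF1, KLF2, KLF8, KLF9, KLF12, KLF14 to KLF18, SP2 and SP4 to SP9. KLF16 had a peak and the other 16 had none, so that 2 of 27 family genes (7.41%) had a peak, close to the 6.88% of all protein-coding genes. Both were promoter entries, which 2.13% of protein-coding genes had. Genes of other C2H2 zinc-finger proteins, taken by their symbols (ZNF, ZBTB, ZSCAN and ZKSCAN), had a peak in 2.22% of 586 cases.

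KLF16 (ENSG00000129911), a repressor that binds GC boxes and belongs to the same branch as KLF13, had the stronger of the family's peaks, on chromosome 19 from 1864047 to 1864541. There 19 fragments were piled up (11.4 to 29.7 by the same Poisson interval) over a local rate of 0.946. The fold enrichment was 10.3 (6.39 to 15.8) and the -log10 q 14.6. It ranked 211 of 1900 by q-value, and 8 promoter peaks had a higher fold enrichment. The intervals of the KLF3 and KLF16 fold enrichments overlapped, and the difference between these peaks was not tested. The KLF16 summit lay 677 bp upstream of the GENCODE v44 gene start, and outside the RefSeq promoter window of KLF16, upstream of it. The full RefSeq gene interval, which also takes in predicted transcripts, starts 12280 bp before the summit in the direction of transcription, so that the peak is upstream of one KLF16 start and downstream of another.

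The KLF16 window held 1 GGGGCGGGG, which covered the summit, and CACGTG at 2 positions, on the plus strand from -38 to -33 bp and from 13 to 18 bp of the summit. The whole called KLF16 peak, 495 bp long, held 3 GGGCGG, 2 GGGGCGGGG, 1 CCACNCCC and 2 CACGTG. In the called KLF3 peak, 230 bp long, these counts were 3, 0, 1 and 0. At least 2 copies of CACGTG were present in 13 of 571 promoter peaks (2.28%), and both GGGCGG and CACGTG in 16.5%. CACGTG is a site of MYC, from which the tag is derived. Binding of tagged KLF7 and recovery of MYC by the antibody cannot be told apart with this design, at KLF16, at KLF3 or at any other peak.

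**Figure D4:**
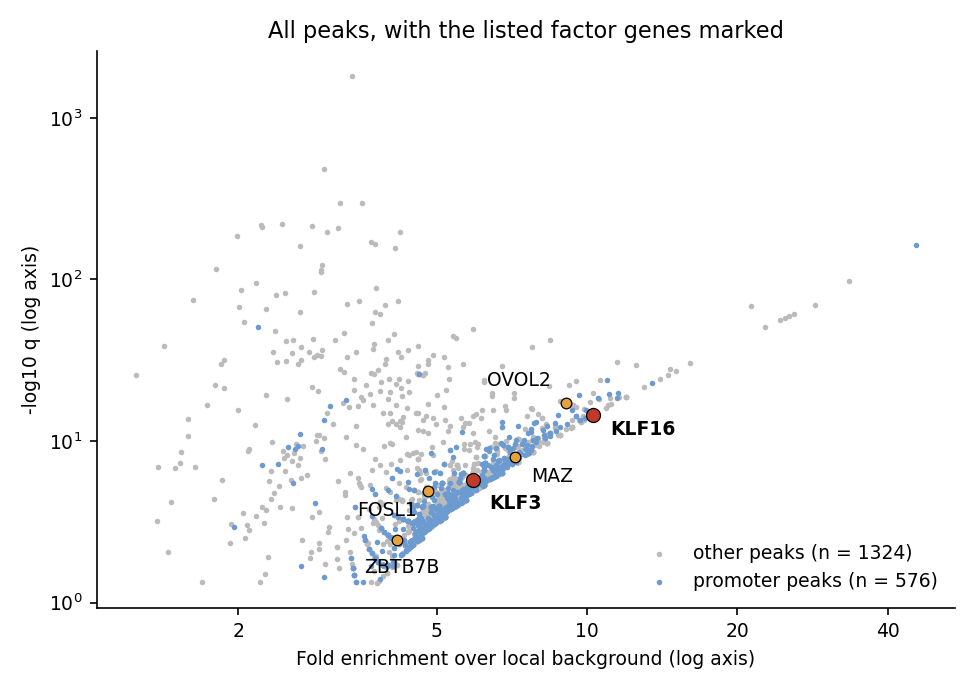
Fold enrichment (log axis) and -log10 q (log axis) of all 1900 peaks, with promoter peaks in blue, other peaks in grey, KLF3 and KLF16 in red and peaks of other listed factors in orange. KLF3, at 5.90-fold, sits in the bulk of the promoter peaks and KLF16, at 10.3-fold, near their upper end.

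Other genes linked to the family were looked up by the same rule, under which 6.88% of protein-coding genes had a peak. None of 15 partners of KLF and SP proteins, among them the corepressors SIN3A and CTBP1, the deacetylases HDAC1 and HDAC2 and the acetyltransferase EP300, had one. Of 12 other zinc-finger factors of GC-rich promoters, 2 (16.7%) had a peak. MAZ had a promoter peak with 15 fragments and 7.16-fold enrichment, shared with AC009133.4, and ZBTB7B was the nearest gene to an intergenic peak at -2722 bp from its start with 4.16-fold enrichment.

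Of 19 epithelial transcription factors, 2 (10.5%) had a peak, beside the 6.88% of protein-coding genes. Those without one included TP63, the master regulator of the basal layer, GRHL2, SOX2 and ZNF750. FOSL1, an AP-1 subunit, had an intronic peak 1126 bp inside the gene, with 17 fragments and 4.80-fold enrichment. The peak listed for OVOL2, a repressor that maintains epithelial identity, had 28 fragments and 9.07-fold enrichment, but its summit was 90571 bp inside the gene and the authors placed it in the promoter of MGME1, a mitochondrial nuclease, and in an intron of SNX5. Within 100 bp of the summit CACGTG was found once at FOSL1, once at ZBTB7B and at 2 positions at OVOL2, and GGGCGG at none of these. In the same window MAZ had 1 GGGCGG and no CACGTG. The whole called peak held 1 GGGCGG at ZBTB7B, 1 at OVOL2, 3 at MAZ and 0 at FOSL1. The counts of these lists are small and were not tested.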

How the data were processed

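ChIP-seq of CAL27 cells with myc-KLF7 was analysed, 1 anti-MYC library and 1 input library. The authors trimmed reads with Trimmomatic, mapped them with BWA, removed duplicates with Samtools and called peaks with MACS2 at a q-value of 0.05; the submitters' processing notes also name FastQC, ChIPseeker and hg38. The values deposited by the authors are a pileup signal, a ratio (fold enrichment over local background), and the -log10 of a Poisson p-value and of the q-value adjusted from it. Read totals were not used here. Of the 1381 identifiers of nearest genes, GENCODE v44 held 1369, all 1369 with a matching chromosome; the left ends were equal for 881 after a shift of 1 base and for 18 without it, so positions were read as GRCh38.

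From the table, each local rate was worked out by dividing the pileup plus 1 by the fold enrichment and taking 1 off, peaks were ranked with ties sharing their mean rank, and motifs were counted on both strands with overlaps. Intervals are 95% Wilson for shares and exact Poisson for pileups, for counting error only. Those of pileups and fold enrichments do not allow for the choice of peaks by the caller's threshold. For shares over all genes by the authors' annotation, older symbols were first replaced by current ones through RefSeq synonyms. Dense clusters were at least 5 peaks with neighbours within 100 kb. Word counting and motif search were checked on simulated sequence. The 10 genes and all lists were chosen with earlier results of these data known. The text names all of the 10 genes, listed genes with a peak, genes that share a peak of these, and the nearest or an annotated gene of the peak closest to each of the 10. Examples of listed genes without a peak and the genes around KLF3 on chromosome 4 fall outside this rule and were chosen after their values were seen. No test was run, because there was no replicate. The scripts ran under Python 3.11.15 (matplotlib 3.10.9, numba 0.67.0, scipy 1.17.1, pandas 2.3.3, numpy 2.4.6).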

Additional observations from a re-analysis of the deposited data

How the results depend on the processing

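The 11 alternatives included other gene assignments and a q-value under 0.01 or 0.001. The rest were a pileup of at least 10, a fold enrichment of at least 5, and clusters or repeated sequence left out. Under each, KLF3 was the only one of the 10 genes with a peak. Most of these settings only narrowed the same list, so they could drop KLF3 but could not add a gene. Only the searches by distance to a transcript start or gene body could have added one. KLF16 was kept with a promoter entry only and with a q-value under 0.001. The rank of the KLF3 peak, 753 by q-value, became 518 by fold enrichment, 875 by pileup, 192 among promoter peaks and 496 without dense clusters. The share of genes with a peak, 6.88%, became 2.75% over all gene symbols, 2.13% with promoter entries only and 2.22% over C2H2 zinc-finger symbols. At KLF3, 6 copies of GGGCGG within 100 bp became 2 within 50 bp and 3 in the called peak, the GGGGCGGGG count became 0 in both, and the CCACNCCC count became 0 within 50 bp. The 50 bp window is the smaller, and the called peak, 230 bp long, begins to the right of the overlapping copies. The distance of the KLF3 summit from the gene start, -137 bp, became -136 bp in the deposited annotation and -139 bp in RefSeq. With 1 library of each kind, no value has a replicate error.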

Other observations

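Chromosome 4 carried 18 of the 1900 peaks, and 6 of them, the KLF3 peak included, lay within 1 Mb of the KLF3 start. The others were in the promoter of RELL1, at -978 kb, at a pair of intergenic positions at -475 and -434 kb, in an intron of RPL9, a ribosomal protein gene, 795 kb downstream, and in the promoters of UGDH and UGDH-AS1, 864 kb downstream. Their fold enrichments ran from 4.77 to 6.62, so the KLF3 peak, at 5.90, was neither the strongest nor the weakest of the group. On the whole chromosome it ranked 5 by fold enrichment.

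The authors' annotation names a transcription factor family for the nearest gene of 149 peaks, and 32 of these, at 30 genes, are of the C2H2 zinc-finger family. Among the 32, KLF16 ranked 2 by fold enrichment and KLF3 ranked 9, with a median of 5.03 over the family. These ranks are a description of 1 peak list.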
